A study of Mus musculus with 12 samples.

Results

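The nuclear genes for subunits of the oxidative phosphorylation machinery were described across heart and kidney of mice with and without the nucleoside transporter mENT1. The 58 genes, grouped by gene name, are 22 of complex I, 4 of complex II, 7 of complex III, 10 of complex IV, 14 of complex V and cytochrome c. They were taken by name, not by a measured value, and are 58 of the 27666 named genes on the array, with 83 probes. All 58 gave a signal well above background on all 12 arrays.

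Gene expression was measured on Agilent mouse arrays with 1 dye, 1 array per RNA sample. The 4 groups of 3 arrays each were heart and kidney of mice with a knockout of mENT1 (gene Slc29a1) and heart and kidney of wild type mice, all FVB/N. Per the submitters' design text the RNA was from 3 knockout and 3 wild type mice, and neither sex nor age is given in the sources used here. Arrays of a group carry the letters a, b and c, and p-values measure the spread between these arrays.

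Oxidative phosphorylation passes electrons from NADH through complex I, and from succinate through complex II, to complex III, cytochrome c and complex IV, where oxygen is reduced. The proton gradient built on the way drives ATP synthesis by complex V. Heart muscle and the tubules of the kidney cortex are both packed with mitochondria, and several subunits of complex IV exist in a ubiquitous form and in a form of heart and skeletal muscle.

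Values are log2 processed signals minus the 75th percentile of the array, so 0 is the 75th percentile and 1 unit is a doubling. Adjusted p-values are from limma over all genes tested, and those under 0.05 count as calls. The 75th percentile itself ran from 464 to 940.4 intensity units between arrays. Slc29a1 stood at 3.15, 3.23 and 3.36 in wild type hearts and at 1.38, 0.59 and 1.53 in knockout hearts, and at 1.51, 1.27 and 1.62 in wild type kidneys against -1.43, -1.30 and -1.43 in knockout kidneys, so the targeted gene went with the labels on every array. The 8 heart markers such as Myh6 and the 8 kidney markers such as Umod separated the tissues, their log2 summed level being 8.55 to 9.34 in hearts against -2.44 to -1.71 in kidneys for the heart list. Knockout hearts a and b stood apart. Their 10 thymus and lymphocyte genes summed to 6.71 and 7.78, against 0.41 in knockout heart c and -0.30 to 0.63 in wild type hearts. Knockout heart a also carried lung genes (summed level 7.69, with 0.54 the highest elsewhere). The same 2 hearts, and knockout kidney a, had a signal for Xist, an RNA of the inactive X chromosome (1.70, 1.69 and 1.21), and the other 9 arrays had -7.97 or less. Signal in 2 hearts and 1 kidney of the knockouts does not match 3 mice giving 1 heart and 1 kidney each. Liver genes summed to 1.604 to 2.49 in all 3 knockout hearts against -2.08 to -0.79 in wild type hearts, and white adipocyte genes to 6.59 to 7.77 against 4.09, 4.96 and 7.57. Ucp1, a marker of brown fat, which is rich in mitochondria, ran from -4.93 in wild type heart b to 5.30 in wild type heart a and 6.26 in knockout heart a. It stood at 2.50 to 4.26 in the kidneys. Ppargc1a, of the same list of 5 brown fat genes, did not follow it in these hearts, at 0.56, 0.24 and -0.02. The 5 genes summed to 4.34, 7.01 and 7.34 in these hearts and to 4.38 to 5.67 in kidneys. Wild type heart a also had the skeletal muscle gene Tnni2 at 4.24, against -0.29 to -0.05 in the other hearts. The part of these tissues in the subunit values was not tested.

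The first property of these subunits is how bright they are. A spot is saturated when its pixels reach the scanner's ceiling, near 65350 units, and its value is then a lower bound. Of the 58 chosen probes 27, or 46.6%, were saturated on at least 1 array, against 1.04% of the 41174 probes on the array. The choice of probe already preferred unsaturated ones. Saturated on all 12 arrays were 12 members. These were Ndufb9 of complex I, the core protein gene Uqcrc1 and the hinge protein gene Uqcrh of complex III, Cox4i1, Cox5a, Cox5b and Cox6a1 of complex IV, and Atp5a1, Atp5c1, Atp5e, Atp5g3 and Atp5o of complex V. Another 15 were saturated on some arrays: Ndufa2, Ndufa4, Ndufa5, Ndufa9, Ndufb2, Ndufs7 and Ndufv1 of complex I, Cyc1 and Uqcrc2 of complex III, Cox6c and Cox8a of complex IV, and Atp5g1, Atp5h, Atp5j and Atp5j2 of complex V. The chosen probes of 31 were saturated on none: 14 of complex I, all 4 of complex II, 3 of complex III, 4 of complex IV, 5 of complex V and cytochrome c. The share of chosen probes at the ceiling thus differed between complexes, from 0 of 4 in complex II to 9 of 14 in complex V. This share also depends on the choice of probe. Ndufa1, Ndufb8, Uqcrq, Cycs, Atp5b, Atp5f1 and Atp5g2 count as unsaturated, but each had another probe that was saturated on at least 1 array.

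A saturated probe cannot show a difference between groups, but scaling gives it one. Cox4i1, a regulatory subunit of complex IV, read 6.92, 6.57 and 7.15 in wild type hearts, 6.46, 6.83 and 6.80 in knockout hearts, 6.80, 7.40 and 6.66 in wild type kidneys and 6.60, 6.73 and 6.95 in knockout kidneys, saturated on every array. A signal that stays at the ceiling would move by -0.17 between knockout and wild type hearts and by -0.19 between kidneys, from the 75th percentiles alone. The median of the 12 members saturated on all arrays was -0.19 in hearts and -0.19 in kidneys. These 12 are therefore given no fold change, and counts are given over the 31 unsaturated members beside those over all 58.

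**Figure D1:**
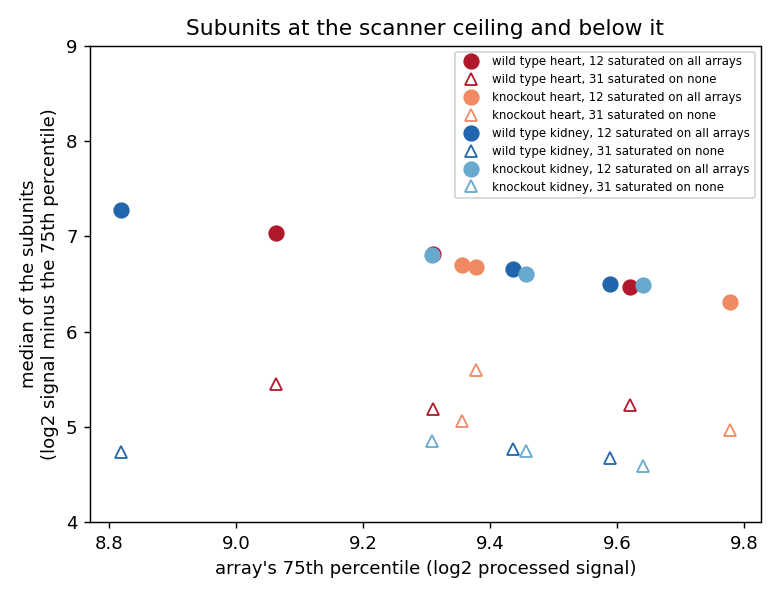
Median of the 12 subunits saturated on all arrays (filled circles) and of the 31 saturated on none (open triangles) in each of the 12 arrays, as log2 signal minus the array's 75th percentile, against that percentile on the log2 scale. The circles fall along a line as the percentile rises, from 7.28 to 6.31, while the triangles are higher in hearts (4.97 to 5.60) than in kidneys (4.59 to 4.85).

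Between wild type heart and wild type kidney, most unsaturated subunits were higher in heart by less than a doubling. Of the 31, 29 lay above 0 and 18 were called higher in heart, which is 58.1% of them where 34.3% of all 17973 genes tested were called higher. Called lower was 1, Ndufb8, or 3.23% where 30.4% of all genes were. The median of the 31 was 0.54 and that of all genes 0.07. Over all 58 members 20 were called higher (34.5%) and 2 lower, with a median of 0.32. Scaling each array to its median in place of the 75th percentile left 12 of the 58 called and quantile normalization 34, and without wild type kidney a, or without c, 12 of the 31 were called in place of 19. The median of the 31 stayed between 0.41 and 0.71 under the settings tried. Bulk tissue was measured, in which more cells of a type and more RNA per cell cannot be told apart. No wild type heart shared a slide with a wild type kidney, and no knockout heart with a knockout kidney. Within a genotype, tissue and slide thus cannot be told apart either.

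Complex I takes electrons from NADH. Of its 14 unsaturated members 10 were called higher in heart and 1 lower, with a median of 0.68. Ndufv2, which carries an iron-sulfur cluster of the NADH-oxidising arm, read 5.19, 5.11 and 5.37 in wild type hearts and 4.19, 4.34 and 4.03 in wild type kidneys. The groups did not overlap, and the difference was 1.04 ± 0.15 (SE, 3 arrays against 3, limma adjusted p = 0.000595). Knockout hearts read 4.90, 4.69 and 5.41 and knockout kidneys 4.04, 3.97 and 4.0, again with every heart above every kidney. Among the others called were the acyl carrier protein gene Ndufab1 and the small subunit gene Ndufc1, both at 0.89. The accessory subunit genes Ndufa8, Ndufa10 and Ndufb5 were called at 0.79, 0.72 and 0.70, and Ndufs8 and Ndufs3 at 0.73 and 0.67. Ndufa1 and Ndufa6, small accessory subunits, were called at 0.54 each. Ndufs1, the largest subunit, gave 0.29, Ndufb3 gave 0.34 and Ndufs4 gave 0.59 without passing the test. Ndufb2, saturated on 1 knockout heart, was called higher at 0.90 ± 0.19 (SE, adjusted p = 0.00451 by limma). Ndufa5 and Ndufs7 were saturated on all 3 wild type hearts and on no kidney, so heart was at least 1.46-fold and at least 1.38-fold higher, though neither passed the test. Ndufa9 and Ndufa4, the latter counted with complex I by its name alone, were saturated on the same 3 hearts. They read 1.13-fold and 1.049-fold higher in heart and were not called (adjusted p = 0.561 and 0.811 by limma). Their spots had some saturated pixels on 8 and on 11 of the 12 arrays. Some kidney spots were thus clipped in part, and these ratios are no firm bounds. Ndufa2 gave 0.44 and Ndufv1, the NADH-binding subunit, 0.18, both saturated on some hearts and not called.

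Ndufb8 was the exception among the unsaturated members. Its chosen probe read -0.37, -0.60 and -0.74 in wild type hearts and 0.45, 0.87 and 0.52 in wild type kidneys, and -0.21, -0.67 and -0.56 in knockout hearts against 1.21, 0.83 and 0.83 in knockout kidneys. Every kidney lay above every heart, by 1.18 ± 0.17 on the log2 scale in wild types (SE, adjusted p = 0.00071 by limma). A second Ndufb8 probe was saturated on all 12 arrays, so the gene has 1 probe that reads a difference and 1 that cannot. The second was far brighter, with means of 6.64 in wild type hearts and 6.67 in wild type kidneys, against -0.57 and 0.61 for the chosen one. The second is annotated to the curated transcript of the gene and spans 44444238 to 44446582 on chromosome 19 in build mm7, which for a 60-base probe means that it crosses an intron. The chosen probe lies at 44442601 to 44442660 and is annotated to a cDNA clone. Ndufab1 had unsaturated probes of opposite sign: the chosen probe gave 0.89 and another on the same curated transcript -1.24, while an unsaturated probe on a cDNA clone gave 0.24. Of the 6 members with several unsaturated probes above background, the probes of 5 had 1 sign in the tissue comparison. The probes were chosen for print because they disagree, as the first 30 bases of each.
Ndufb8, saturated probe: taccagcctgtgggtccgaagcagtaccct
Ndufb8, chosen probe: ccgtggaataacggacaaagtagccacatt
Ndufab1, chosen probe: ttcctgatatagatgcagagaagttaatgt
Ndufab1, other probe: tgtaaatggctactttaaatcccagggtag

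Complex II, succinate dehydrogenase, had no saturated member, and all 4 lay above 0. Sdhb, the iron-sulfur subunit, read 6.38, 6.41 and 6.77 in wild type hearts and 5.92, 5.56 and 5.58 in wild type kidneys. The groups did not overlap, and the difference was 0.83 ± 0.17 (SE, adjusted p = 0.0043 by limma). Sdhc, a membrane anchor, was called at 0.45 ± 0.16 (SE, adjusted p = 0.041). Sdhd, the other anchor, read 5.94, 5.73 and 6.12 in hearts and 5.77, 6.21 and 5.65 in kidneys, so its groups overlapped. Sdha, the flavoprotein, gave 0.39 with an adjusted p of 0.065 by limma.

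Complex III passes electrons to cytochrome c. Its called members were Uqcrb at 0.76 ± 0.23 (SE, adjusted p = 0.022 by limma) and Uqcrq at 0.40 (adjusted p = 0.0498). The Uqcrb call was lost under median scaling and without the filter on dim probes. It was also lost when wild type heart c, wild type kidney a or wild type kidney c was left out. The limma adjusted p ran from 0.0501 to 0.0747 in these settings. The chosen Uqcrq probe, annotated to a cDNA clone, was dim, with means of -3.99 in wild type hearts and -4.39 in wild type kidneys. A Uqcrq probe on the curated transcript had means of 6.43 and 6.45 there, saturated on all 12 arrays. Uqcrfs1, the Rieske iron-sulfur protein, gave 0.19. A second probe of Uqcrc1, saturated on 1 array, gave 0.62 where the chosen one stood at the ceiling. Uqcrc2, the other core protein, gave 0.27 and Cyc1, cytochrome c1, 0.13, both saturated on some arrays and not called. Cycs, the mobile carrier cytochrome c, read 5.55, 5.59 and 5.75 in wild type hearts and 5.43, 5.99 and 5.11 in wild type kidneys, with the highest and the lowest value both in kidney.

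Complex IV, cytochrome c oxidase, had 4 unsaturated members, of which 2 were called higher in heart. Cox6b1 read 3.02, 3.00 and 3.35 in wild type hearts and 2.33, 2.25 and 2.26 in wild type kidneys. All hearts were above all kidneys, by 0.84 ± 0.15 (SE, adjusted p = 0.00174 by limma). Cox7c was called at 0.58 ± 0.14 (SE, adjusted p = 0.00809). Cox7b gave 0.72 and missed the threshold, and Cox7a2, the ubiquitous form of subunit VIIa, gave -0.04. Cox6c, saturated on 1 knockout heart, gave 0.46 and did not pass.

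Cox8a, the ubiquitous form of subunit VIII, ran the other way. It read 5.99, 5.64 and 5.95 in wild type hearts, unsaturated on each, and 6.38, 6.98 and 6.29 in wild type kidneys, saturated on each. The kidney values are lower bounds, so kidney was at least 1.61-fold higher (fitted difference -0.69 ± 0.22 SE, adjusted p = 0.0273 by limma). The call was lost with the letters as a replicate block (adjusted p = 0.0528), without the filter on dim probes (0.0611), without scaling (0.0642), and when wild type heart b (0.0958) or c (0.0543) was left out. In the knockouts the kidneys were again saturated on all 3 arrays, at 6.14, 6.41 and 6.5, against 6.05, 5.60 and 6.03 in hearts, where 1 array was saturated and the fit did not pass (adjusted p = 0.103). Its muscle counterpart Cox8b read 6.76, 6.4 and 6.94 in wild type hearts, all saturated, and 2.20, 2.06 and 2.96 in wild type kidneys, so heart was at least 19.6-fold higher.

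The other tissue isoforms, genes that were not among the 58, went with Cox8b. Cox6a2, the muscle form of subunit VIa, was saturated in every heart (6.01 to 6.75) and stood at -3.22 to -2.91 in kidneys, which makes heart at least 723-fold higher in wild types and at least 676-fold in knockouts. Cox7a1, the muscle form of subunit VIIa, was saturated in every heart and at least 3.61-fold higher there in wild types. Cox7a2l, a factor that joins complexes III and IV, was called higher in heart at 1.11. Cyct and Cox7b2, forms known from testis, were not well above background in wild type kidneys and were at least 17.97-fold and at least 5.82-fold higher in wild type hearts. Cox6b2 did not pass (0.17), and Cox4i2 and Cox8c were not tested because no group of 3 was above background throughout. Cyct and Cox7b2 passed the filter only through the hearts, where they are high, so the filter favoured a call in that direction. No share of called isoforms is therefore set against that of all genes. Of the isoforms above background in both tissues, Cox6a2, Cox7a1 and Cox8b were called higher in heart. Of the 7 tested, with Cox7a2l, which is no tissue isoform, 0 were called in knockout against wild type hearts.

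**Figure D2:**
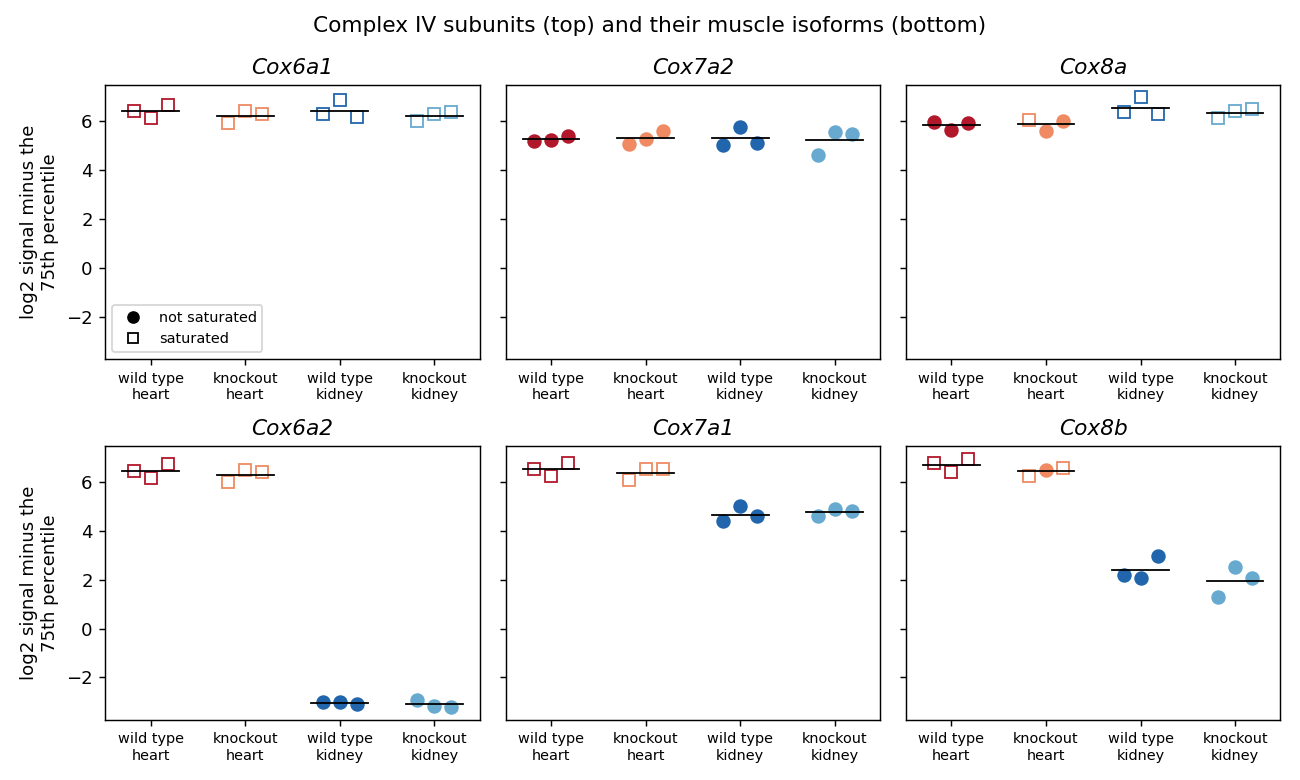
Log2 signal minus the array's 75th percentile on each of the 12 arrays for Cox6a1, Cox7a2 and Cox8a (top) and their muscle isoforms Cox6a2, Cox7a1 and Cox8b (bottom), with open squares where the spot was saturated and a line at each group's mean. The muscle isoforms are saturated in all hearts, except Cox8b in 1 knockout heart, and lower in kidneys, Cox8a is saturated in all 6 kidneys, and levels of different panels are not comparable.

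Complex V, the ATP synthase, had 9 of 14 members whose chosen probe was at the ceiling on at least 1 array. Of the 5 others 2 were called higher in heart. Atp5l, subunit g of the membrane part, read 6.35, 6.28 and 6.48 in wild type hearts and 5.74, 5.35 and 5.51 in wild type kidneys. The groups did not overlap, with a difference of 0.84 ± 0.15 (SE, adjusted p = 0.0022 by limma). Atp5f1, subunit b of the stalk, was called at 0.52 ± 0.13 (SE, adjusted p = 0.0103). Atp5b, the catalytic beta subunit, gave 0.31 and Atp5d, the delta subunit, 0.21, neither past the threshold. Atp5g1 and Atp5g2 code for the same subunit c of the rotor. Atp5g1 was saturated on all 6 hearts and on no kidney, so wild type heart was at least 1.70-fold higher (adjusted p = 0.0107 by limma), while Atp5g2 gave 0.41 without passing and the other copy, Atp5g3, was saturated throughout. Atp5j and Atp5j2 were saturated on all 3 wild type hearts and no wild type kidney. Heart was at least 1.19-fold higher for Atp5j. Atp5j2 read 1.06-fold higher, but its spots had some saturated pixels on 11 of the 12 arrays, so this ratio is no firm bound. Atp5h was saturated on all 3 wild type hearts and 1 wild type kidney, and none of these passed.

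**Figure D3:**
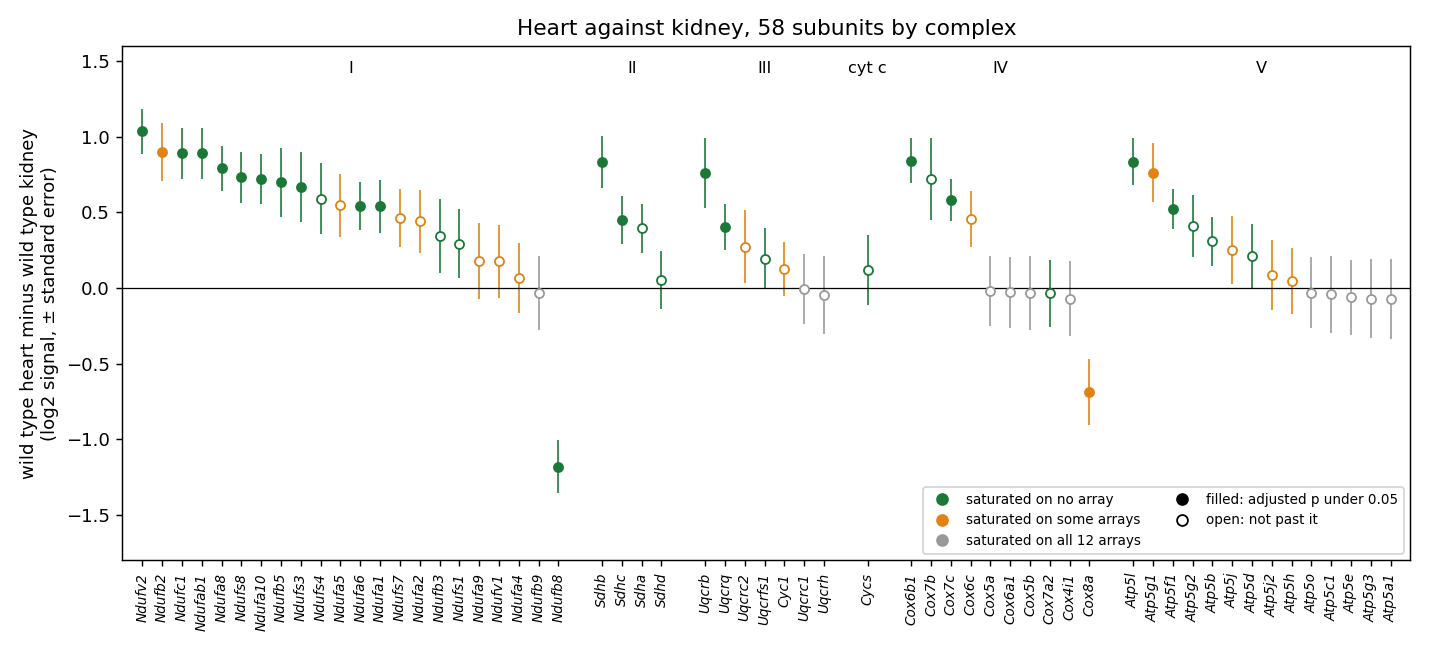
Wild type heart minus wild type kidney for the 58 subunits, grouped by complex and ordered within it, as log2 difference with its standard error. Green points are saturated on no array, orange on some and grey on all 12, and filled points passed an adjusted p of 0.05. The grey points lie between -0.07 and -0.01, 29 of the 31 green points lie above 0, and Ndufb8 and Cox8a are the 2 called below it.

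The comparison of knockout tissues repeats the one in wild types on other arrays. Of the 31 unsaturated members 28 lay above 0 with a median of 0.45, and 7 were called higher (22.6%, where 29.4% of 18161 genes were) and 1 lower (3.23%, where 24.2% were). Called in both genotypes were 7 members: Ndufa8, Ndufab1, Ndufb5, Ndufv2, Cox7c and Atp5l, higher in heart, and Ndufb8, lower. The share of all genes called in both was not counted, so these 7 have no background to be set against. All 18 members called higher in wild type heart were above 0 between knockout tissues too, where 28 of the 31 were above 0 in any case. In either direction together, 25.8% of the 31 were called where 53.7% of all genes were, against 61.3% and 64.6% in wild types. The difference between the genotypes is tested further on. The count of 9 over all 58 fell to 2 without knockout kidney c, 4 without knockout kidney b and 5 without knockout heart c, was 20 over the arrays with no Xist signal, and was 7 without hearts a and b, where the median of the 31 was 0.84.

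Other lists are given beside the same shares of all genes, 34.3% higher and 30.4% lower. Of the 13 unsaturated subunits outside the 58, 8 were called higher in wild type heart (61.5%) and 0 lower (median 0.995), led by Ndufa11 at 1.94, Atp5k at 1.32 and Ndufa3 at 1.27. Of 44 assembly factors, 15 were called higher and 13 lower (34.1% and 29.5%, near the shares of all genes; median 0.16), Uqcc2 at 1.90, Ttc19 at 1.32 and Cox10 at 1.14 on the heart side and Acad9 at -2.12, Coa6 at -1.21 and Cox16 at -1.17 on the kidney side. Of 16 genes of the tricarboxylic acid cycle 7 (43.8%) were called higher, among them Ogdh at 1.38, Idh3b at 1.27 and Cs, citrate synthase, at 1.25, and 1 lower, Suclg2 at -1.48. Cytosolic ribosomal protein genes, which do not serve mitochondria, had 26 of 51 unsaturated members called higher (51.0%) and 0 lower (median 0.55), such as Rps13 at 1.13. Genes of the mitochondrial ribosome were called in both directions, 16 higher and 13 lower of 78 (20.5% and 16.7%, below the shares of all genes; median 0.07), with Mrps23 at 1.61, Mrpl30 at 1.39 and Mrpl33 at 1.19 highest and Mrps6 at -0.93, Mrps5 at -0.75 and Mrpl50 at -0.72 lowest. The 22 regulators of mitochondrial biogenesis were also below those shares, at 13.6% and 22.7%: 3 were called higher, Perm1 at 5.07, Pprc1 at 0.80 and Ppard, not well above background in kidney, by at least 1.596-fold, and 5 lower, among them Gabpb1 at -1.49, Esrrg at -1.17 and Polg2 at -0.88. Among 8 exchange genes, 3 were called higher, with Vdac3 at 0.76 and Slc25a3 at 0.70, and 1 lower. Ckmt2, the creatine kinase of muscle mitochondria, was saturated in hearts and not well above background in kidneys (at least 8564-fold), and Ckmt1, its ubiquitous counterpart, was lower in heart at -1.74. Ppard and Ckmt2 passed the filter only through heart, where they are high, so the filter favoured their calls in that direction. The subunits encoded in mitochondrial DNA were not analysed here.

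The members' promoters were searched on both strands for short strings known from factors of respiratory genes. The sequences are RefSeq's, in build GRCm38.p6, and each window runs from 250 bases before to 50 after the first listed start of a gene. A window was found for 47 of the 58. The NRF1 string CGCATGCG was in 12.8% of the members' windows and 1.91% of all 27025, and the looser GCGCANGC, which overlaps it, in 31.9% against 10.1%. The ETS string CCGGAAG was in 23.4% against 9.12%, the YY1 string AANATGGC in 23.4% against 6.23%, and the ERR string CAAGGTCA in 6.38% against 1.53%. CCAAT was in 42.6% against 37.9% and TATAAA in 4.26% against 14.2%. For cytosolic ribosomal genes the same shares were 3.45% for CGCATGCG and 39.7% for CCGGAAG. Among the 27 unsaturated members with a window, the tissue difference had a median of 0.78 for the 6 with the ETS string and 0.54 for the other 21, and of 0.60 for the 4 with CGCATGCG and 0.58 for the other 23, given as a description with no test. A match is a description, not a site or a cause. The 250 bases before the start are printed for Atp5l, with the most strings, Cycs, Sdhb and Cox6b1, and for the isoform pair Cox8a and Cox8b, which ran opposite ways. Capitals mark any of the 7 strings on either strand.
Atp5l, chr9:44920743-44920992, minus strand: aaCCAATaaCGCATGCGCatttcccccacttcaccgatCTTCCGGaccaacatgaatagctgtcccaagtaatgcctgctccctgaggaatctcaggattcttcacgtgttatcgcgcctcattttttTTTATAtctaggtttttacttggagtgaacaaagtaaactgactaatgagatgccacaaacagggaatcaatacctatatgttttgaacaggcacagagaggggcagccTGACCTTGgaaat
Cycs, chr6:50566570-50566819, minus strand: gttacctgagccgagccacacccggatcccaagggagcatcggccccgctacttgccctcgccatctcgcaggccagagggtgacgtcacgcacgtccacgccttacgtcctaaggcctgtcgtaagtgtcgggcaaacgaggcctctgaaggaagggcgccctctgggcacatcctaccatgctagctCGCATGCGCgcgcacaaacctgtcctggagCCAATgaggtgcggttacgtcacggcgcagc
Sdhb, chr4:140961021-140961270, plus strand: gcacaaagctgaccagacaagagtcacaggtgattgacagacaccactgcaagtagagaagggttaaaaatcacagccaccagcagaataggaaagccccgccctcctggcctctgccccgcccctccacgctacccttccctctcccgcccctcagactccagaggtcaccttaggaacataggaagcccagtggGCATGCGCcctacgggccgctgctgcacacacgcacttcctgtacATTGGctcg
Cox6b1, chr7:30626115-30626364, minus strand: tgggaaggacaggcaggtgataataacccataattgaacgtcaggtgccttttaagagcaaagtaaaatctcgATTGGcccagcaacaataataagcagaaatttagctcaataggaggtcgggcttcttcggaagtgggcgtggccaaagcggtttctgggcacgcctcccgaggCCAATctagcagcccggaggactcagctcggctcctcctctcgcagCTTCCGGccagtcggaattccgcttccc
Cox8a, chr19:7217617-7217866, minus strand: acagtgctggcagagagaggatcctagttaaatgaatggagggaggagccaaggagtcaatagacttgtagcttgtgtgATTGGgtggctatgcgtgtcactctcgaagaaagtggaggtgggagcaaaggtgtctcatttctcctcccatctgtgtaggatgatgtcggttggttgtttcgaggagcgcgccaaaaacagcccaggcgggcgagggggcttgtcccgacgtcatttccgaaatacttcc
Cox8b, chr7:140900447-140900696, minus strand: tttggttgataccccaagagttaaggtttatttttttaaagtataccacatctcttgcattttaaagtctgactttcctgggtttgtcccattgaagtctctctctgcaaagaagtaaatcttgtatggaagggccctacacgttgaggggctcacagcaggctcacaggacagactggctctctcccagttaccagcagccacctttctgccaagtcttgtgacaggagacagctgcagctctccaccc
In the printed bases Atp5l held 1 NRF1 string that overlaps 1 looser match, with 1 ETS, 1 ERR, 1 CCAAT and 1 TATAAA string. Cycs held 1 NRF1 string that overlaps 1 looser match, and 1 CCAAT string. Sdhb held 1 looser match and 1 CCAAT string, Cox6b1 held 1 ETS and 2 CCAAT strings, and Cox8a held 1 CCAAT string. None of the 7 was found in the printed stretch of Cox8b. The shares above are over the whole windows, in which Sdhb had 1 ETS string, Atp5l and Cox8a 2 each, and Cox6b1 3 CCAAT strings.

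In heart, 0 of the 58 subunits were called between knockout and wild type by limma, where 117 of 17459 genes, 0.670%, were called, and 0 had an unadjusted p under 0.05. The lowest adjusted p was 0.328, for Sdhc. Of the 31 unsaturated subunits 26 were below 0 with a median of -0.21. All genes had a median of -0.07, with 57.6% below 0. Over all 58, 52 were below 0 with a median of -0.20. These include the 12 saturated throughout, whose sign the scaling gives. Other lists lay low too, with medians of -0.22 for the other subunits, -0.21 for assembly factors and -0.32 for the tricarboxylic acid cycle. Exchange genes had -0.21, tissue isoforms -0.22, the mitochondrial ribosome -0.16 and regulators -0.15, while cytosolic ribosomal genes had 0.02. The lower values were thus not particular to the subunits. By non-overlapping groups, 1 member was lower (1.72%, background 13.0%) and 0 higher (background 9.20%). A signal at the ceiling would have moved by -0.17 here, as given above.

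How the lower values were spread over the knockout hearts depends on what they are set against. Set against the mean of the wild type hearts, the 31 members had a median of -0.36 in knockout heart a, with 27 below it, and of -0.50 in knockout heart b, with 30 below. In knockout heart c the median was 0.12 with 8 below. Wild type hearts a, b and c themselves had medians of -0.10, -0.09 and 0.22, with 28, 29 and 2 below. The wild type hearts are part of that mean, so with c high, a and b tend to fall below it. Their counts therefore cannot be set beside those of the knockout hearts. Against the wild type heart of the same letter, which deviated with the knockout heart, the medians were -0.24, -0.36 and -0.10 for a, b and c. Of the 31, 27, 30 and 20 were below. Below 0 in all 3 pairs were 19 of the 31, among them the 4 members of complex II, Ndufa10, Ndufs1, Ndufb5 and Atp5b, and 0 were above 0 in all 3. Sdhc gave -0.25, -0.72 and -0.37. The share of all genes below 0 in all 3 pairs was not counted, so the 19 have no background to be set against. In the comparison of the groups 57.6% of all genes were below 0. A fit by limma with letter as the replicate block called 0 members. Hearts a and b are the 2 arrays with thymus genes, with Rag1 at 3.28 and 4.05 against -7.94 in heart c, and with Xist signal. With heart c alone the median of the 31 was 0.12, with 23 above 0, and 0 members were called, the spread resting on the wild types. The knockout hearts lay on 1 slide, beside 1 wild type kidney, and the wild type hearts on another, so genotype and slide cannot be told apart here.

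**Figure D4:**
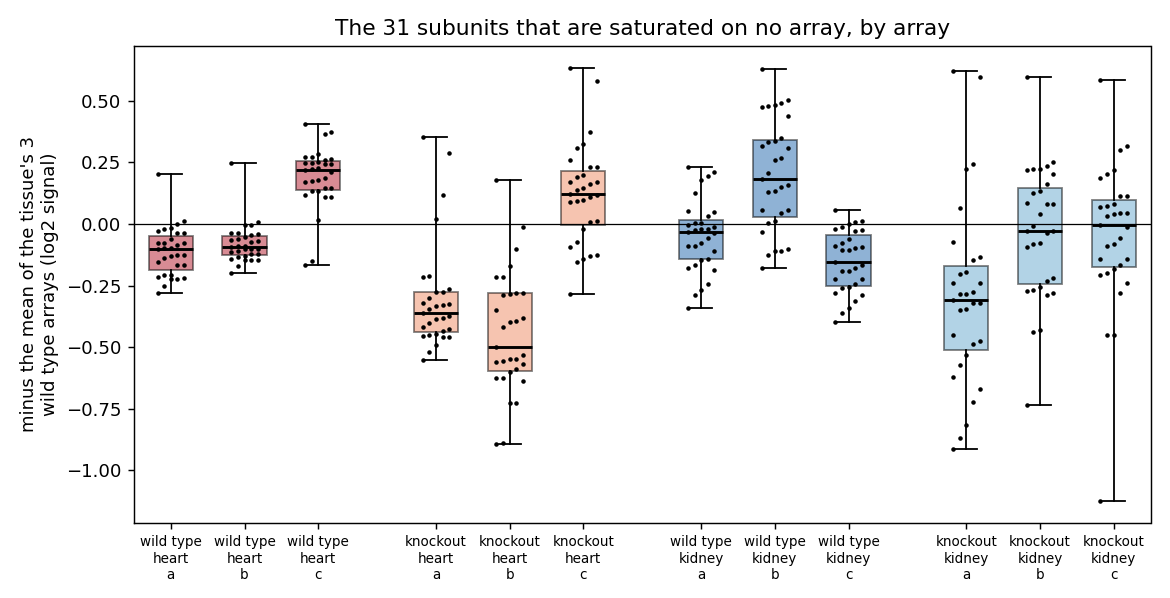
Each of the 31 unsaturated subunits (points) on each of the 12 arrays, minus the mean of the 3 wild type arrays of its tissue, in log2 units; boxes give the quartiles, the line the median and the whiskers the whole range. Knockout hearts a and b (medians -0.36 and -0.50) and knockout kidney a (-0.31) lie below the others, and knockout heart c lies at 0.12.

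Named by size in heart, the lowest were Ndufa10, Atp5b, Sdhc and Sdhb, and the highest Cox7c, Ndufb8, Uqcrq and Cox8a. Ndufb8 and Uqcrq are read there by their dim cDNA clone probes. Ndufa10, an accessory subunit of complex I, read 4.56, 4.22 and 4.99 in knockout hearts against 4.86, 5.11 and 5.37 in wild type hearts. The ranges overlapped, and the difference was -0.52 ± 0.24 (SE, adjusted p = 0.334 by limma). Atp5b read 4.45, 3.88 and 4.65 against 4.65, 4.67 and 5.0, the 1 member whose groups did not overlap, and then by less than 0.01 (-0.45 ± 0.23 SE, adjusted p = 0.366). Its 2 other probes were saturated on 9 and on 12 arrays. The 4 members of complex II gave -0.25 to -0.45, with Sdhc at 4.77, 4.50 and 5.08 against 5.02, 5.23 and 5.45 in wild types. With heart c alone, Ndufa10, Atp5b, Sdhc and Sdhb gave -0.13, -0.13, -0.16 and -0.07. Cox7c was the highest at 0.18 ± 0.23 (SE), from 3.59, 3.26 and 4.11 against 3.44, 3.48 and 3.49.

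In kidney 0 of the 58 were called by limma, where 20 of 17214 genes, 0.116%, were, and 0 had an unadjusted p under 0.05. The lowest adjusted p was 0.483, for Atp5f1. The median was -0.13 over all members and -0.11 over the 31, with 27 of the 31 below 0, but 0.032 after quantile normalization, 0.080 without scaling, 0.035 without knockout kidney a, the kidney with Xist signal, and -0.38 with normexp background correction. By non-overlapping groups 1 member, Ndufa8, was lower (1.72%, background 12.6%) and 0 higher (background 8.75%). Ndufa8 read 3.55, 3.62 and 3.76 in knockout kidneys and 3.91, 3.96 and 3.84 in wild type kidneys, so every knockout kidney lay below every wild type kidney (-0.26 ± 0.15 SE, adjusted p = 0.506 by limma).

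The lowest in kidney were Cycs, Uqcrq, Ndufb5 and Atp5f1, with Uqcrq again read by its dim cDNA clone probe. Cycs read 4.64, 5.22 and 5.35 in knockout kidneys against 5.43, 5.99 and 5.11 in wild types, overlapping (-0.44 ± 0.29 SE, adjusted p = 0.565 by limma). Ndufb5 read 3.54, 3.42 and 3.41 against 3.72, 4.35 and 3.52, where wild type kidney b alone stood above the other 5 by over 0.6. Atp5f1 read 3.13, 2.77 and 2.75 against 3.25, 3.26 and 3.1. The highest were Ndufb8 at 0.35 ± 0.19 (SE, adjusted p = 0.503), with knockout kidney a at 1.21 and the others at 0.45 to 0.87, then Ndufa5 at 0.19, Atp5g1 at 0.12 and Ndufs7 at 0.09. Cox6b1 showed how far 1 array can go: knockout kidney a read 1.36 where the other 5 kidneys read 2.25 to 2.88.

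**Figure D5:**
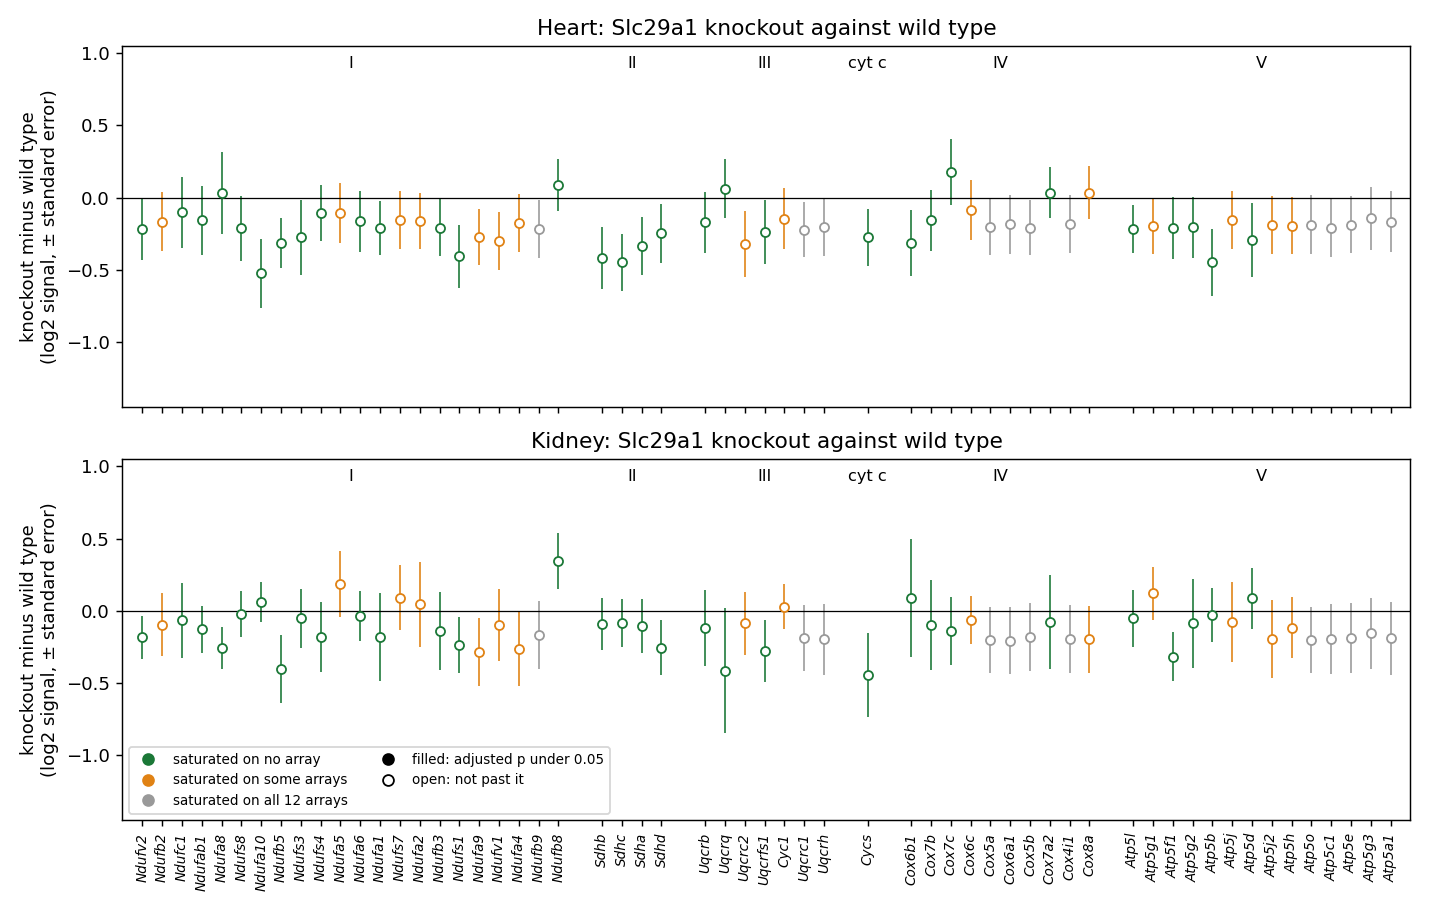
Knockout minus wild type in heart (top) and kidney (bottom) for the 58 subunits in the order of the tissue plot, as log2 difference with its standard error; colours give saturation and open points did not pass an adjusted p of 0.05. No point is filled, most lie below 0 in both tissues, and the grey points, at the scanner ceiling, lie between -0.22 and -0.14.

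The knockout effect in heart minus that in kidney was called for 0 of 58 members by limma, where 118 of 18501 genes, 0.638%, were, and 0 had an unadjusted p under 0.05. The lowest adjusted p was 0.367, for Ndufa10, which gave -0.52 in heart and 0.06 in kidney. The median was -0.04 over the 58 and -0.06 over the 31. This contrast equals the tissue difference in knockouts minus that in wild types, so the lower count of called members in the knockouts is not shown to be a change of their tissue difference. The other subunits, assembly factors, isoforms and genes of the tricarboxylic acid cycle had 0 called members in each knockout comparison, as did both ribosome lists, the regulators and the exchange genes.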

How the data were processed

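Probes were matched to the 58 genes by the name in the scanner files or through RefSeq accessions and synonyms. The members and lists were chosen with earlier results of these data known. Per the file headers, the authors' scanner files hold intensity per spot from Agilent's software Feature Extraction, release 9.5.3.1, background-subtracted and detrended, with no scaling between arrays; the submitters' processing notes give version 9.1. Per the file headers, probes are placed in build mm7. Values in the deposited table are log2, centred per probe and tissue, tested on the values. Each of its columns follows the scanner array of the opposite genotype with its letter and tissue, so directions rest on the scanner files, where Slc29a1 is lower in the arrays labelled knockout. The processed signals were set to log2 minus the array's 75th percentile, after flagged outlier spots were dropped and replicate spots averaged. Control spots were left out. Each gene took 1 probe, unsaturated first and then the brightest over the 12 arrays, and was tested where well above background on all 3 arrays of a group. Groups were compared with limma 3.58.1 in R 4.3.3, Benjamini-Hochberg adjusted over all genes tested, after tests on simulated data. Named members are the extremes of each complex between tissues and the 4 most positive and 4 most negative of each knockout comparison. Knockout and wild type hearts of 1 letter deviated together (r = 0.398, 0.215 and 0.273), so letters pair them by the rule used; in kidney they did not. Another scaling, background correction, filter, probe rule, blocks and left-out arrays were the alternatives. The number of arrays limits the precision. Genes saturated or below background on every array of a group have a bound there, the dim side set at the higher of its own signal and the array's lowest signal above background.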

Additional observations from a re-analysis of the deposited data

How the results depend on the processing

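Between wild type tissues, 22 members (19 of the 31 unsaturated) were called. Median scaling gave 12 (10), no filter on dim probes 14 (12), no scaling 14 (12), a replicate block 16 (14) and quantile normalization 34; leaving out 1 array gave 15 to 28 (12 to 21). The median of the 31 was 0.41 after median scaling and 0.71 after quantile normalization. The median of all members was 0.54 without saturated probes and 0.54 without any saturated pixel. Median scaling moved the median of all genes from 0.07 to -0.06 between wild type tissues and from 0.11 to -0.23 between knockout tissues.

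Between knockout tissues, 9 members (8 unsaturated) were called. Median scaling gave 2 (1), quantile normalization 17 (14), normexp 1 (1), no filter on dim probes 5 unsaturated, slide as a block 3 (3), arrays without Xist signal 20 (18), Xist as a covariate 22 (20), 1 fit of all arrays 14 (13), a replicate block 8 (7), and leaving out 1 array 2 to 8 (2 to 8). The medians were -0.15 (unsaturated 0.11) after median scaling, 0.45 (0.72) with normexp, 0.45 without saturated probes, 0.73 for the unsaturated without Xist arrays and 0.84 without the 2 hearts with thymus genes.

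In every knockout comparison 0 members were called under every setting run, the replicate block included. In heart the median of the 31 was 0.12 without Xist arrays, 0.12 with Xist as a covariate, 0.12 without the hearts with thymus genes, and with the deposited table's own labels 0.21 (all members 0.20). In kidney it was 0.032 after quantile normalization, 0.035 without Xist arrays, 0.035 with the covariate, 0.080 without scaling, -0.38 with normexp (all -0.40), and 0.12 with the table's labels (all 0.14); leaving out 1 array gave -0.21 to 0.035. For the difference of effects it was -0.27 after median scaling, 0.19 with normexp (all 0.25), 0.14 without Xist arrays and 0.27 without the hearts with thymus genes; leaving out 1 array gave -0.27 to 0.038. The causes were not tested.

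Of the 7 single members called between wild type tissues and followed through the settings, 4 lost the call under at least 1 of them, in 12 of 136 checks, and 0 reversed. The calls lost were of Cox8a, Uqcrb, Cox6b1 (1 fit of all arrays, adjusted p = 0.0673 by limma) and Ndufb8, whose brighter, saturated probe gave -0.03. The slide could not be a block in heart. The 12 members saturated throughout have no measured difference, and 3 arrays a group limit the rest. Settings without saturated pixels, without scaling, by the table's labels, without the thymus hearts and over the 31 alone were chosen after seeing the data.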
